A study of Mus musculus with 12 samples.

Results

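The genes described here are 32 components of the protein-folding and quality-control machinery of the endoplasmic reticulum (ER). They comprise the ATF6 and IRE1-XBP1 sensors of ER stress, the chaperones and disulfide isomerases of the ER lumen, the proteins of ER-associated degradation (ERAD), 3 translocon components and Ufm1. Members were taken from a list of symbols that was chosen with earlier results of these data known. Of these, 32 of 32 were matched to a single identifier among the 37583 gene identifiers of the count files. RNA sequencing had been carried out on 12 single-cell clones of granulocyte-monocyte progenitors (GMPs), the precursors of neutrophils and monocytes. There were 6 Taz knockout (KO) clones, titled 3G, 3H and 3I and 4J, 4K and 4L, and 6 wild-type (WT) clones, titled 1A, 1B, 1C, 2D, 2E and 2F. Taz encodes Tafazzin, the acyltransferase that remodels the mitochondrial lipid cardiolipin. Clones of both genotypes came from C57BL/6 fetal liver at E15.5. All carried a retroviral fusion of the estrogen receptor with the transcription factor Hoxb8 (ER-Hoxb8), which holds the cells at the progenitor stage while estradiol is present, and all were grown in stem cell factor and estradiol without any further treatment. The title number (3 and 4 in KO, 1 and 2 in WT, 3 clones each) is not explained in the labels. Should clones with the same number share an embryo or a founding culture, they would not be independent replicates, and the p-values given here would be too small.

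Proteins that enter the secretory pathway are folded in the ER by the Hsp70 chaperone BiP, the Hsp90 chaperone GRP94, the lectin chaperones calnexin and calreticulin, and a family of protein disulfide isomerases. Proteins that fail to fold are passed back to the cytosol by ERAD, in which the ubiquitin ligase HRD1 and its adaptor SEL1L form the best known channel, and are destroyed by the proteasome. When unfolded proteins build up, the membrane sensors IRE1, ATF6 and PERK start the unfolded protein response. Cleaved ATF6 and spliced XBP1 raise chaperone and ERAD genes, and PERK slows translation and raises ATF4 and CHOP. GMPs make large amounts of granule proteins such as myeloperoxidase and elastase, which fold and mature in this pathway.

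Taz KO clones differed from WT clones in 8 of the 31 members that could be tested, in both directions. Herpud1, Sel1l and Derl1, which serve ERAD, and Ern1, which encodes IRE1, were higher. Hsp90b1, Pdia6 and Creld2, which fold proteins in the ER lumen, were lower, and so was the ERAD ligase gene Syvn1. The changes were small, with log2 fold changes between 0.18 and 0.40 in size. In edgeR's quasi-likelihood test with Benjamini-Hochberg adjustment over all 11819 genes tested and a threshold of 0.05 on the adjusted p, 4 of 31 members (12.9%) were higher in KO, against 3.99% of all genes. A further 4 of 31 (12.9%) were lower in KO, against 3.94% of all genes. An unadjusted p under 0.05 was found for 13 members (41.9%), and for 23.7% of all genes. Because the members were chosen with earlier results of these data known, these shares are a description and carry no test. The median log2 fold change was -0.04 over the members and -0.01 over all genes tested. The clones are bulk cultures, so more cells of a type and more RNA per cell cannot be told apart.

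**Figure D1:**
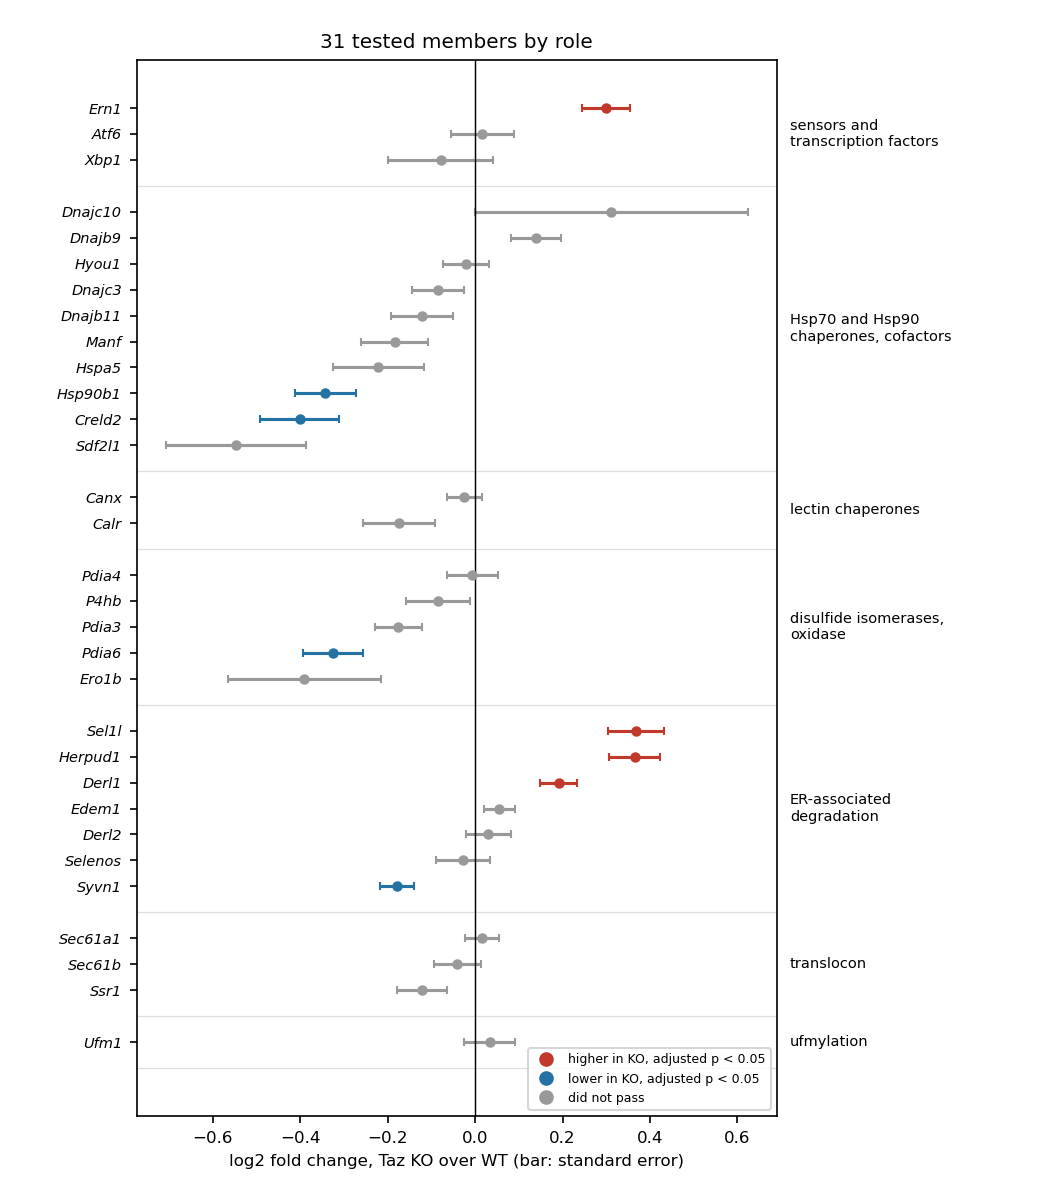
Log2 fold change (KO over WT) with its standard error for the 31 tested members, grouped by role, from a fit of 6 KO and 6 WT clones. Red points were higher and blue points lower in KO at an adjusted p under 0.05, and grey points did not pass; 3 of the 4 red points lie in the ERAD group, and 3 of the 4 blue points among the chaperones and disulfide isomerases.

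Between 18970252 and 27431544 reads per clone were counted in genes. Taz itself stood at 2.21 to 4.08 CPM (counts scaled to library size with TMM factors) in KO clones and at 37.1 to 43.9 CPM in WT clones (log2 fold change -3.54, adjusted p = 5.68e-08), as the labels imply. Of 10 GMP marker genes, 10 were tested; edgeR, DESeq2 and voom called 0 of them in either direction, and 0 had an unadjusted p under 0.05. Their summed level was 13213 to 21211 CPM in KO clones and 14296 to 23524 CPM in WT clones. WT clone 2D stood apart by its mature neutrophil genes, which summed to 1635 CPM there, against 22.0 to 156 CPM in KO clones and 23.7 to 124 CPM in the other WT clones. Of the 14 mature neutrophil markers, 9 were tested and 8 of these had a log2 fold change below 0 in KO, with a median of -2.88 over the 9. Of this list edgeR called Cxcr2 lower (log2 fold change -1.64, adjusted p = 0.0411). DESeq2 called 1 of these markers, voom without a block 0, and voom with the title number as a block 1. The part of these transcripts in the members' levels was not tested beyond leaving out 2D. KO clone 3G held fetal hepatocyte transcripts, mostly Alb, summing to 141 CPM, against at most 1.95 CPM in any other clone. Without 2D the members called were 4 higher and 4 lower, beside 558 and 463 of all genes. Without 3G they were 4 higher and 3 lower, beside 330 and 272 of all genes.

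The sensors came apart. Ern1 (ENSMUSG00000020715, chromosome 11), the kinase and ribonuclease that splices Xbp1 mRNA, was expressed at 231, 228, 222, 229, 197 and 220.2 CPM in KO clones 3G to 4L, in that order, against 186, 166, 181, 161, 188 and 196 CPM in WT clones 1A to 2F. The genotypes did not overlap, although the lowest KO clone, 4K, and the highest WT clone, 2F, lay about 1 CPM apart. The mean was 221 ± 12.4 CPM in KO and 179.6 ± 13.5 CPM in WT (SD, n = 6 each), a log2 fold change of 0.30 (SE 0.05, adjusted p = 0.00743).

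Xbp1, the transcription factor made from the message that IRE1 splices, stood in the same order of clones at 150.2, 152, 120.4, 142, 120.0 and 161 CPM in KO and 178, 140.2, 143, 182, 111 and 138 CPM in WT. All KO values lay inside the WT range, and the log2 fold change was -0.08 (SE 0.12, adjusted p = 0.744). Counts per gene do not separate spliced from unspliced Xbp1, so IRE1 activity was not measured. Atf6, the sensor that becomes a transcription factor after cleavage in the Golgi, stood at 112, 106, 100.2, 99.0, 79.6 and 96.7 CPM in KO clones, and at 109.9, 97.6, 92.0, 96.3, 96.2 and 94.7 CPM in WT clones. The KO range enclosed the WT range, with a log2 fold change of 0.02 (SE 0.07, adjusted p = 0.921).

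**Figure D2:**
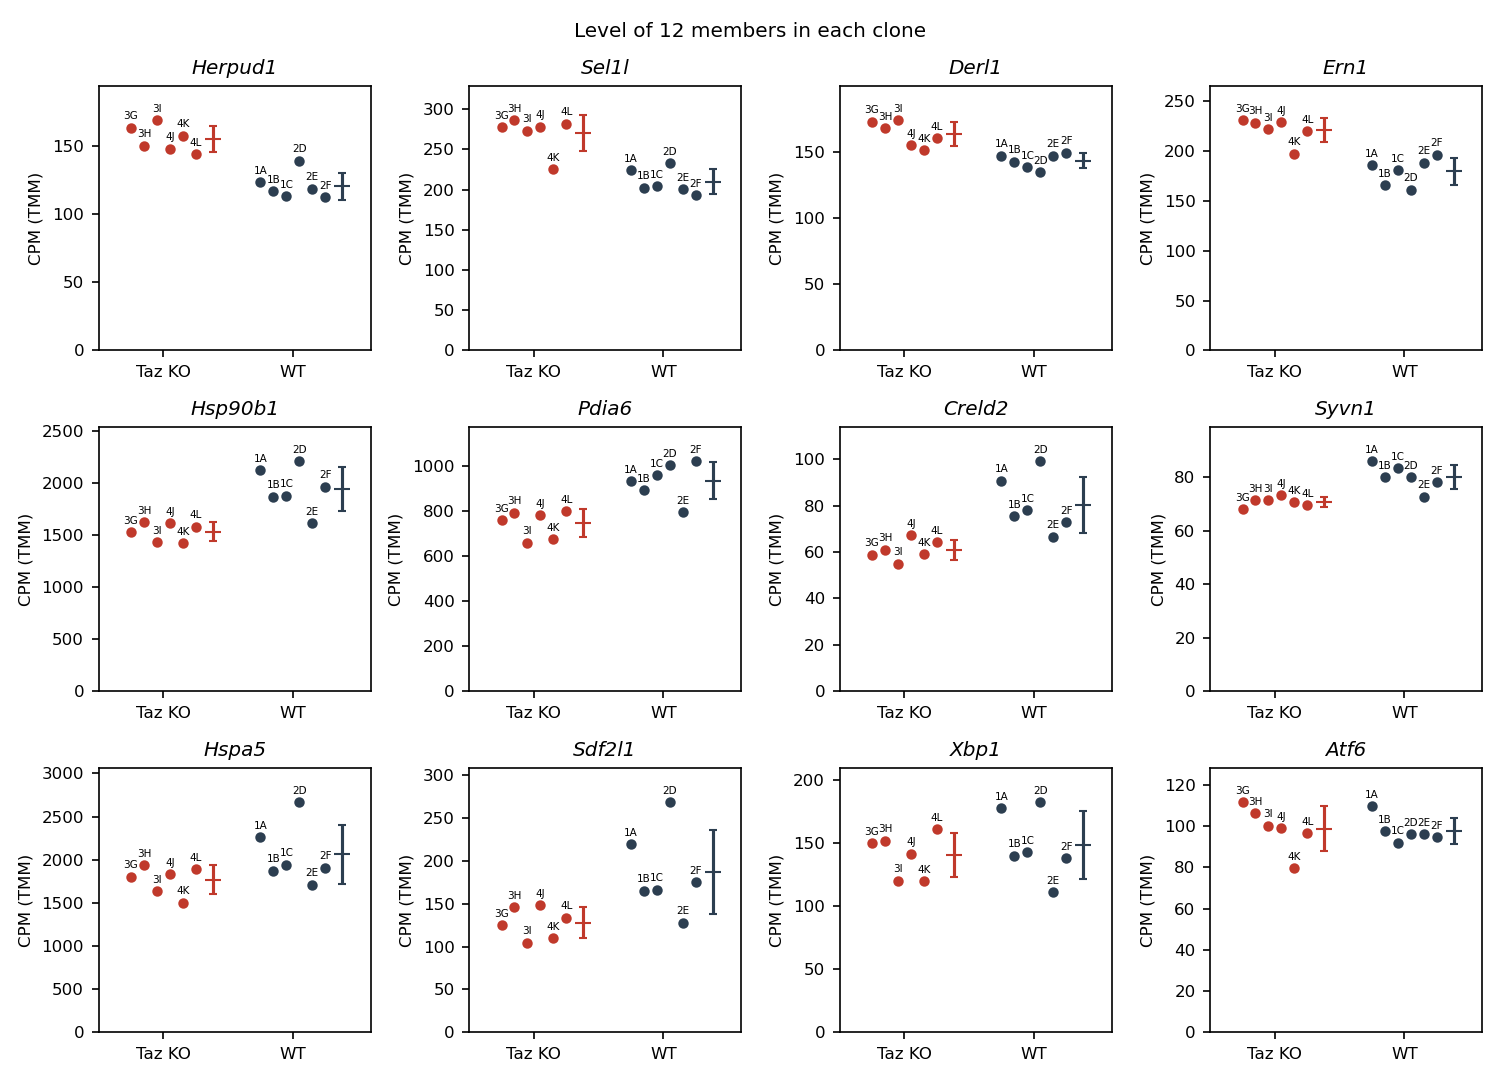
Level of 12 members in CPM after TMM scaling (vertical axes, from 0) in each of 6 KO clones (red, left) and 6 WT clones (dark, right), with the mean and SD of each genotype beside the points. KO and WT do not overlap for Herpud1, Derl1 and Ern1; for Hsp90b1, Pdia6, Creld2 and Syvn1 the WT clone that falls among the KO clones is 2E.

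Of the 10 members grouped as Hsp70 and Hsp90 chaperones and cofactors, with Creld2 placed among them, 2 were lower, no other passed, and 8 had a log2 fold change below 0. Hsp90b1 (ENSMUSG00000020048, chromosome 10) encodes GRP94, which folds integrins and Toll-like receptors. It stood at 1527, 1623, 1432, 1615, 1423 and 1582 CPM in KO clones 3G to 4L and at 2127, 1869, 1879, 2208, 1616 and 1967 CPM in WT clones 1A to 2F. WT clone 2E was the single WT clone inside the KO range. The mean was 1534 ± 89.1 CPM in KO and 1944 ± 210.1 CPM in WT (SD, n = 6 each), a log2 fold change of -0.34 (SE 0.07, adjusted p = 0.0136). Of the exon bases of Hsp90b1, 15.7% also lie in other annotated genes, among them 1810014B01Rik on the other strand, and reads had been counted without regard to strand.

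Creld2 (ENSMUSG00000023272, chromosome 15), an ER-resident protein with disulfide isomerase activity, stood at 58.9, 61.0, 54.9, 67.1, 59.0 and 64.3 CPM in KO clones, against 90.7, 75.4, 78.0, 99.0, 66.6 and 72.7 CPM in WT clones. KO clone 4J and WT clone 2E were the only clones inside the range of the other genotype, and they differed by less than 1 CPM. The log2 fold change was -0.40 (SE 0.09, adjusted p = 0.0210), and the adjusted p was just above 0.05 without clone 3G and 0.0518 without clone 3I, so the call depended on each of these clones.

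Hspa5, which encodes BiP and is the usual readout of ER stress, did not pass. It stood at 1806, 1938, 1636, 1837, 1502 and 1893 CPM in KO clones 3G to 4L and at 2265, 1874, 1943, 2664, 1714 and 1909.8 CPM in WT clones 1A to 2F. WT clones 2D, 1A and, by a narrow margin, 1C lay above every KO clone, and the other 3 WT clones lay inside the KO range. The log2 fold change was -0.22 (SE 0.10, adjusted p = 0.221). It was -0.13 (adjusted p = 0.361) without clone 2D and -0.27 (adjusted p = 0.117) without clone 2E. Over 22 alternative settings the adjusted p of Hspa5 ranged from 0.0557 to 0.372. Sdf2l1, an inducible partner of the BiP cochaperone ERdj3, had the largest log2 fold change of the members in size, -0.55 (SE 0.16), and missed the threshold at an adjusted p of 0.0586. Its level was 105, 129 and 148 CPM (lowest, median and highest) in KO and 128, 171 and 268 CPM in WT. With single clones left out, its adjusted p was 0.0222 without WT clone 2E and 0.0700 to 0.122 without any other clone.

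The other cofactors of BiP stayed short of the threshold. Dnajb9 (ERdj4), which holds BiP on IRE1, showed a log2 fold change of 0.14 (adjusted p = 0.166), and Manf, a secreted ER stress protein that binds BiP, -0.18 (adjusted p = 0.168). Dnajb11 (ERdj3) stood at -0.12, Dnajc3 (p58IPK) at -0.08 and Hyou1 (GRP170), a nucleotide exchange factor of BiP, at -0.02. Dnajc10 (ERdj5), a reductase that unlinks disulfides before degradation, varied most between clones. It ranged from 679 to 1291 CPM in KO, and from 216 CPM in clone 2D to 1129 CPM in clone 2F among WT clones (log2 fold change 0.31, SE 0.31, adjusted p = 0.595).

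Promoter sequence was examined because chaperone genes are known to carry an ER stress element, CCAAT followed by 9 bases of any kind and then CCACG, which NF-Y and ATF6 bind. RefSeq promoters of build GRCm38.p6, from 250 bases before to 50 bases after the annotated start, were on hand for 27 members and not for Derl1, Hyou1, Sec61a1, Atf6 and Manf. The exact element, on either strand, was present in 39 of 32851 promoters (0.119%) and in 10 of the 27 members (37.0%), namely Calr, Canx, Creld2, Derl3, Dnajc3, Ero1b, Hsp90b1, Hspa5, Pdia6 and Syvn1. The 4 members that were lower in KO are all among them, and their elements are shown with that of Hspa5. In each sequence, 5′ to 3′ on the strand of the gene, capitals mark the element and 20 bases stand on each side; an element on the other strand reads CGTGG, 9 bases, ATTGG. Hsp90b1 holds 2 copies. The stretches are chr10:86705513-86705676 (minus strand) for Hsp90b1, chr12:17266471-17266529 (plus) for Pdia6, chr15:88819500-88819558 (plus) for Creld2, chr19:6046512-6046570 (plus) for Syvn1 and chr2:34772005-34772063 (plus) for Hspa5.
Hsp90b1: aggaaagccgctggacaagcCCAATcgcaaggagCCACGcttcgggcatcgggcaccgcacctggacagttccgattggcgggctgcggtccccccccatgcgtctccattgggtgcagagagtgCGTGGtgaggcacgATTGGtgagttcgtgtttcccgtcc
Pdia6: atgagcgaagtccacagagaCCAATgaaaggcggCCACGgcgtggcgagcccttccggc
Creld2: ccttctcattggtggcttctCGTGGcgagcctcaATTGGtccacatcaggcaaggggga
Syvn1: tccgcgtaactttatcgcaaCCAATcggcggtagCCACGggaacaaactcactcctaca
Hspa5: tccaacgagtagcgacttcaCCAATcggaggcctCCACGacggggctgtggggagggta

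Of the 9 tested members with this element, 4 were lower, no other passed, and 9 had a log2 fold change below 0, with a median of -0.22. Of the 17 members with a promoter but without the element, 3 were higher, no other passed, 8 had a log2 fold change above 0, and the median was -0.01. Sdf2l1, with the lowest log2 fold change of the members, is among these 17. Outside the members, 27 genes have the element and 6 of those were tested. The rest either matched no single identifier in the count files or did not pass the low-count filter. Among the 6, Pan2 was lower (log2 fold change -0.19, adjusted p = 0.0213), no other passed, and the median log2 fold change was 0.06. The split by element was drawn with the fold changes known, so it is a description and carries no test. A match shows letters in a window and not that a factor was bound.

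**Figure D3:**
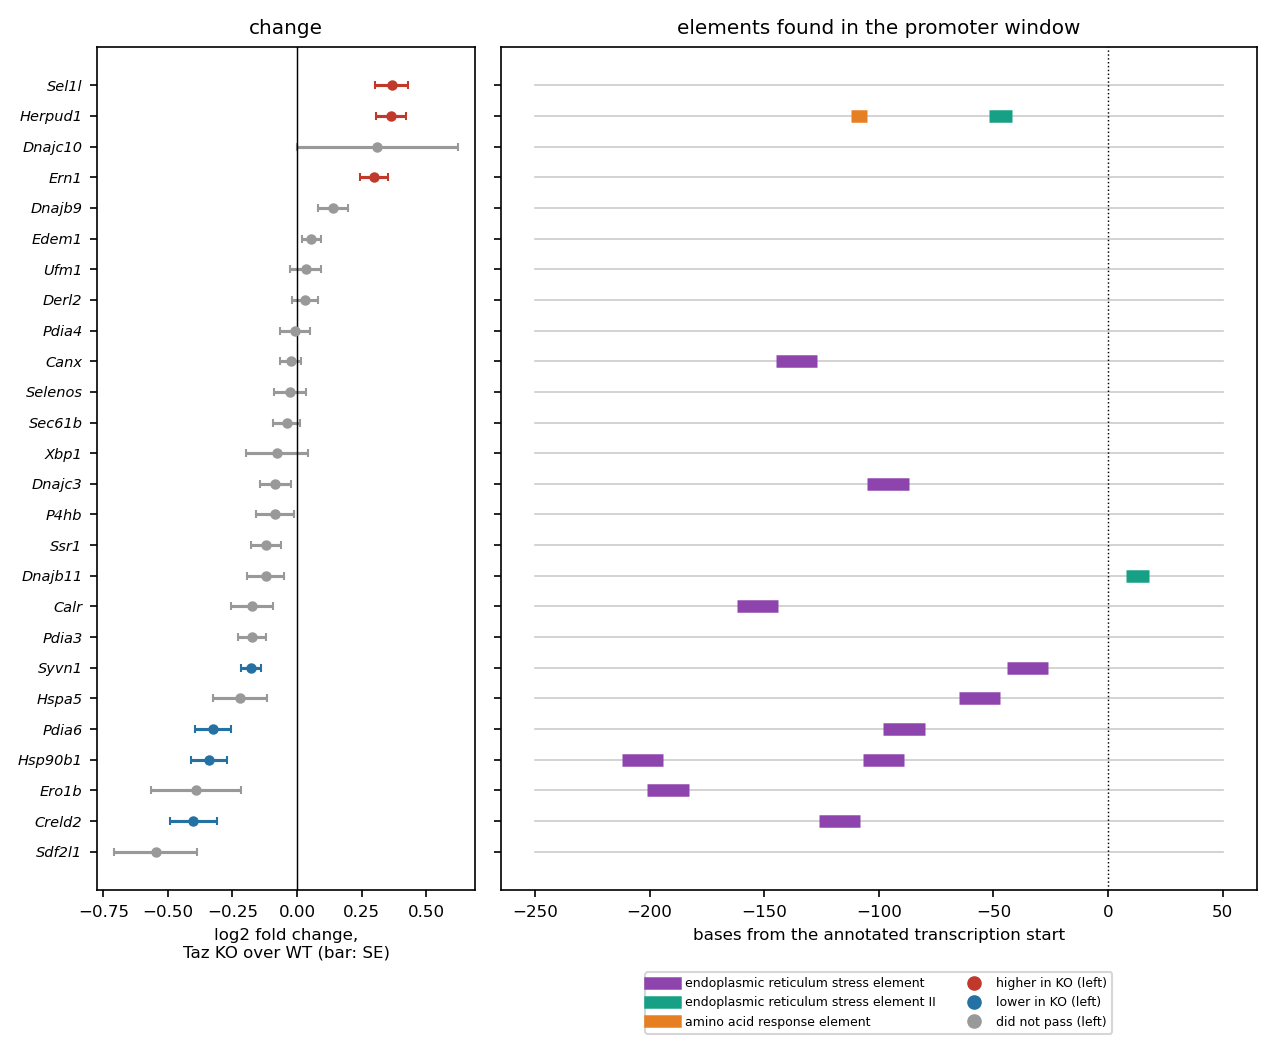
Left, log2 fold change (KO over WT) with its standard error for the 26 tested members that have a promoter sequence, in order of fold change; right, position of each element found, in bases from the annotated start. Elements of the CCAAT and CCACG form stand in the lower part of the plot, from Canx (-0.02) to Creld2 (-0.40), and the amino acid response element is found in Herpud1 alone.

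The 2 lectin chaperones did not pass in edgeR, DESeq2 or voom, nor at an unadjusted p under 0.05. Calr, which encodes calreticulin and had the highest level per kilobase of exon of all members (1597 CPM per kb in KO and 1801 CPM per kb in WT), showed a log2 fold change of -0.17 (adjusted p = 0.226). Canx, which encodes its membrane-bound relative calnexin, stood at 1712 ± 87.5 CPM in KO and 1741 ± 67.7 CPM in WT (SD, n = 6 each; log2 fold change -0.02, adjusted p = 0.763).

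Among the 4 members grouped as disulfide isomerases and the oxidase gene Ero1b, 1 was lower and 5 of 5 had a log2 fold change below 0. Creld2 was not counted in this group. Pdia6 (ENSMUSG00000020571, chromosome 12), an isomerase that also acts on the luminal face of IRE1, stood at 759, 792, 659, 781, 675 and 799 CPM in KO clones 3G to 4L and at 931, 890.1, 956, 1003, 794 and 1018 CPM in WT clones 1A to 2F. KO clone 4L and WT clone 2E were the only clones inside the range of the other genotype. The mean was 744 ± 61.4 CPM in KO and 932 ± 82.1 CPM in WT (SD, n = 6 each), a log2 fold change of -0.33 (SE 0.07, adjusted p = 0.0156).

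Pdia3 (ERp57), the isomerase that works with the lectin chaperones, came close to the threshold. Its level was 1285, 1424 and 1472 CPM (lowest, median and highest) in KO and 1360.2, 1613 and 1664 CPM in WT, with a log2 fold change of -0.18 (SE 0.05, adjusted p = 0.0691). Only WT clone 2E lay inside the KO range, and the adjusted p was 0.0143 without that clone and 0.0777 to 0.143 without any other clone. P4hb, the founding isomerase, showed a log2 fold change of -0.08 (adjusted p = 0.527) and Pdia4 (ERp72) one of -0.01 (adjusted p = 0.965). Ero1b, an oxidase that recharges the isomerases, was expressed at 9.88 to 17.0 CPM in KO and 11.4 to 21.3 CPM in WT (log2 fold change -0.39, SE 0.17, adjusted p = 0.197); 13.9% of its 50-base words are shared with the related sequence Gm18562, so its counts are uncertain.

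Among the members, ERAD held most of the rises. Of its 8 members, 7 were tested, 3 were higher and 1 was lower. The summed level of the 8 was 1046 to 1123 CPM in KO clones and 956 to 1015 CPM in WT clones. This sum includes the 3 genes called higher and is no separate result. The 34 other ERAD genes, with 1 called higher and 2 lower, summed to 4064 to 4283 CPM in KO clones and 3950.5 to 4182 CPM in WT clones. The summed level of the 10 Hsp70 and Hsp90 chaperones and cofactors was 5746 to 6469 CPM in KO clones and 5927 to 7274 CPM in WT clones. Herpud1 (ENSMUSG00000031770, chromosome 8) encodes HERP, a membrane scaffold of the HRD1 complex. It stood at 164, 150.4, 169, 148, 158 and 144 CPM in KO clones 3G to 4L and at 124, 117, 113, 139, 119 and 113 CPM in WT clones 1A to 2F. Every KO clone lay above every WT clone, and WT clone 2D came nearest to the KO clones. The log2 fold change was 0.36 (SE 0.06, adjusted p = 0.00371), the smallest adjusted p of the members.

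The promoter of Herpud1 is shown because it differs from those of the lower genes. It lacks the CCAAT and CCACG form and has the related ER stress element II, ATTGGNCCACG, which was found in 12 of 32851 promoters (0.0365%) and in 1 other member, Dnajb11. It also has an amino acid response element, TGATGNAA, the kind of site that ATF4 and CHOP bind, present in 1304 of 32851 promoters (3.97%) and in no other member. The element TGACGTGG, bound by XBP1 and ATF6, was found in 222 promoters (0.676%) and in 0 members. Both Herpud1 elements are in capitals in the stretch chr8:94386297-94386407 (plus strand, GRCm38.p6); the amino acid response element comes first and lies on the other strand.
Herpud1: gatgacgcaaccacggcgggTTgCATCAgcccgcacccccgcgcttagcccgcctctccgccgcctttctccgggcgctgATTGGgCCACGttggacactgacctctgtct

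Sel1l (ENSMUSG00000020964, chromosome 12), the adaptor that brings substrates to HRD1, stood at 277, 286, 273, 278, 225 and 282 CPM in KO clones and at 224, 202, 204, 233, 201 and 193 CPM in WT clones. KO clone 4K lay below the other KO clones and inside the WT range, and WT clone 2D lay just above it. The mean was 270.2 ± 22.5 CPM in KO and 209.5 ± 15.5 CPM in WT (SD, n = 6 each), a log2 fold change of 0.37 (SE 0.06, adjusted p = 0.00598). Derl1 (ENSMUSG00000022365, chromosome 15), which encodes the membrane protein derlin-1 of the retrotranslocation machinery, stood at 173, 168, 173, 155, 151 and 160.0 CPM in KO clones and at 147, 142, 138, 135, 147 and 149 CPM in WT clones. The genotypes did not overlap; the KO clones with title number 4 lay nearest to WT. The log2 fold change was 0.19 (SE 0.04, adjusted p = 0.0179).

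Syvn1 (ENSMUSG00000024807, chromosome 19) encodes HRD1, the ubiquitin ligase that SEL1L serves. It stood at 68.0, 71.3, 71.5, 73.2, 70.7 and 69.5 CPM in KO clones 3G to 4L, against 85.9, 80.1, 83.4, 80.1, 72.7 and 78.1 CPM in WT clones 1A to 2F. KO clones were tightly grouped, and WT clone 2E again was the single WT clone in their range. The mean was 70.7 ± 1.79 CPM in KO and 80.0 ± 4.53 CPM in WT (SD, n = 6 each), a log2 fold change of -0.18 (SE 0.04, adjusted p = 0.0176). The adaptor and the ligase differed in opposite directions. The log2 ratio of Sel1l to Syvn1 was 1.67 to 2.03 in KO clones and 1.29 to 1.54 in WT clones, without overlap; this ratio was formed after both changes were seen and has no test.

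The other tested ERAD members did not pass. Edem1, a mannosidase-like lectin that sorts glycoproteins for degradation, stood at 283 ± 12.2 CPM in KO and 272 ± 9.97 CPM in WT (SD, n = 6 each; log2 fold change 0.06, adjusted p = 0.374). Derl2 showed a log2 fold change of 0.03 (adjusted p = 0.770), and Selenos, which links derlins to the ATPase VCP, one of -0.03 (adjusted p = 0.832). Derl3 was at the limit of detection, with 1 to 8 counts per clone in KO and 6 to 14 in WT, and was not tested.

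The translocon genes and Ufm1 did not pass either, by the same tools or at an unadjusted p under 0.05. Sec61a1, the channel itself, had a log2 fold change of 0.02, Sec61b one of -0.04 and Ssr1 (TRAP alpha) one of -0.12 (adjusted p = 0.230). Ufm1, the ubiquitin-like modifier attached to ribosomes at the ER, stood at 46.6 to 54.7 CPM in KO and 47.5 to 57.1 CPM in WT (log2 fold change 0.03, adjusted p = 0.785). Of Sec61a1 and Sec61b, 14.6% and 15.3% of the 50-base words occur in related sequences, so both counts are uncertain.

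**Figure D4:**
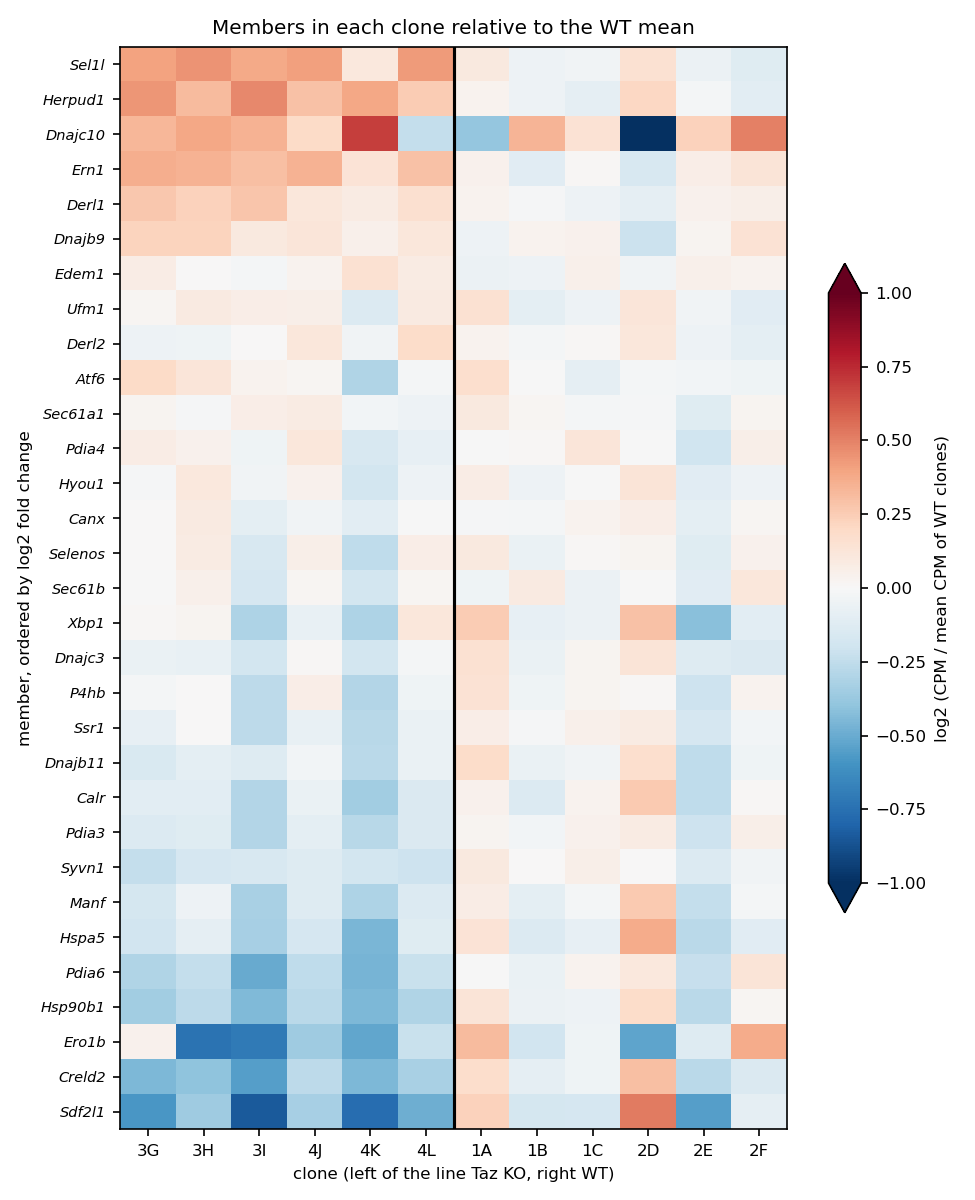
Log2 of the level in each clone over the mean of the WT clones for the 31 tested members (rows, in order of fold change), with 6 KO clones left of the line and 6 WT clones right of it; red is above and blue below the WT mean. Sel1l, Herpud1, Ern1 and Derl1 are red across the KO clones, most cells of the lower rows are blue in the KO clones and in WT clone 2E, and KO clone 4K is the bluest KO column for many rows.

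Clones of a genotype also differed among themselves across many members. Within KO, clone 4K had the lowest level for 19 of 31 tested members and clone 3I for 6, while 3H and 4J each had the highest level for 10. Within WT, clone 2E had the lowest level for 19 members, and 2D had the highest for 14 and 1A for 8. The members together took 1.97% ± 0.108 of the counts in genes in KO clones and 2.14% ± 0.144 in WT clones (SD, n = 6 each), with ranges of 1.83% to 2.08% in KO and 1.91% to 2.32% in WT.

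The same clones stood out by their GMP marker genes. The summed level of the 10 markers was 13213 CPM in 4K and 14291 CPM in 3I, against 20599 to 21211 CPM in the other 4 KO clones. Among WT clones it was 14296 CPM in 2E, against 17693 to 23524 CPM in the others, with 2D highest. Mast cell and basophil markers stood the other way, with sums of 5037 CPM in 4K and 4689 CPM in 3I, the highest of the KO clones, and 4256 CPM in 2E, the highest of the WT clones. Of 6 such markers, 5 were tested. Between genotypes edgeR, DESeq2 and voom without a block called 0 of them, and voom with the title number as a block called 1. In edgeR 2 had an unadjusted p under 0.05, and Fcer1a lay below 1 CPM in every clone. The pattern in KO was not particular to these markers. Monocyte and macrophage markers summed to 1804 CPM in 4K and 1260 CPM in 3I, again the highest of the KO clones. Among WT clones their sum was highest in 2F, at 1130 CPM, against 1079 CPM in 2E. B-lineage and plasma cell markers were likewise highest in 4K and 3I among KO clones, but in 1A among WT clones. The part of cell state in the chaperone levels was not tested. Without clone 2E the members called were 4 higher and 6 lower, and Hsp90b1, Pdia6, Creld2 and Syvn1 were among the 6. Calls over all genes also moved without 2E, to 496 higher and 535 lower, from 472 and 466 with all clones.

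**Figure D5:**
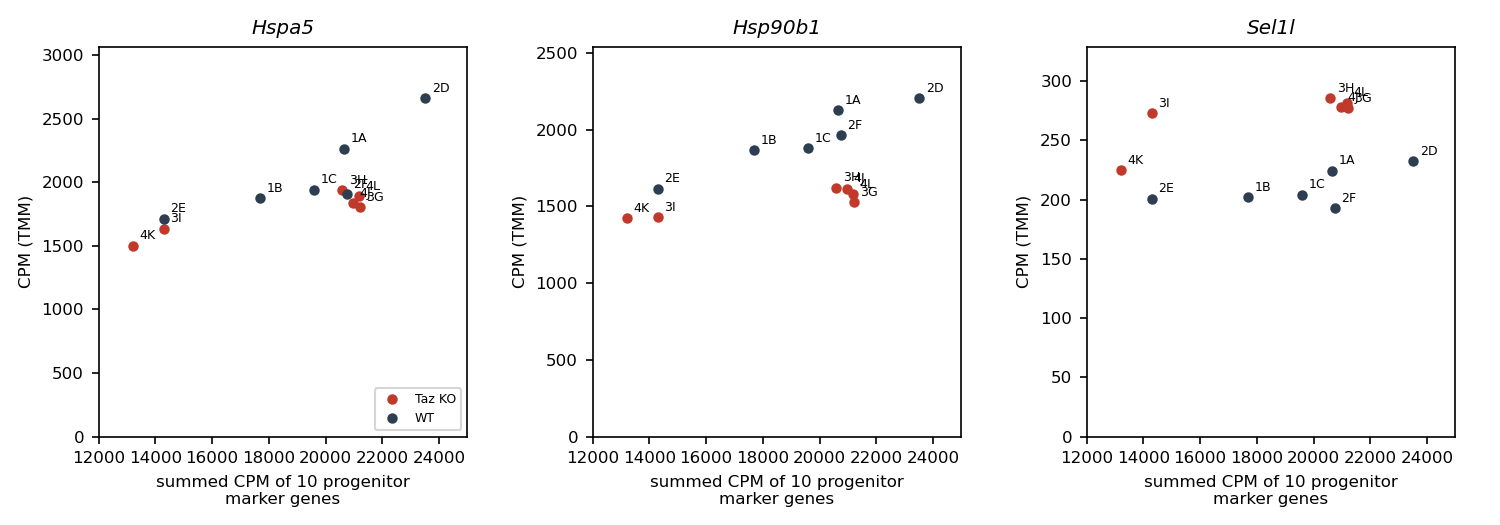
Level of Hspa5, Hsp90b1 and Sel1l (vertical axes, CPM after TMM scaling, from 0) against the summed CPM of 10 GMP marker genes (horizontal axes, not from 0) in 6 KO clones (red) and 6 WT clones (dark). Clones 4K, 3I and 2E have the lowest marker sums, 13213 to 14296 CPM, and 2E is the only WT clone among them. Hsp90b1 lies lower in KO, except that WT clone 2E lies below KO clone 3H. Sel1l lies higher in KO, except that KO clone 4K lies below WT clone 2D. Genotypes were not compared at matched sums.

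Within a genotype, clones of different title numbers were compared in the same way, with fewer clones a side. In a fit of 4 groups of 3 clones, 0 members were called by edgeR between KO clones titled 4 and 3, as were 0% of all genes. An unadjusted p under 0.05 was found for 2 of 31 members, beside 244 of all 11819 genes. These members were Atf6 (log2 fold change -0.21) and Derl1 (log2 fold change -0.14). Between WT clones titled 2 and 1, 0 members and 0% of all genes were called. Here 1 of 31 members had an unadjusted p under 0.05, Syvn1 (log2 fold change -0.11), beside 416 of all 11819 genes. Each KO title number was also set against each WT title number, in 4 pairs that share clones. A call in all 4 pairs with the same sign was made for 0 of 31 members, against 0.203% of all genes. Herpud1 had log2 fold changes of 0.45 and 0.38 for KO clones titled 3 over WT clones titled 1 and 2, and of 0.35 and 0.28 for KO clones titled 4, with an adjusted p of 0.0288 in the first of these pairs and 0.0703 to 0.202 in the others. Hsp90b1 had log2 fold changes of -0.36, -0.34, -0.35 and -0.33 in the same order of pairs, with adjusted p between 0.137 and 0.263. The 3 members whose genotypes did not overlap (Herpud1, Ern1 and Derl1, or 9.68% of 31) stood against 5.38% of all genes without overlap.

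The PERK arm, which holds no member of the module, was set beside it. Of its 8 genes, 7 were tested in edgeR, which called 4, all higher in KO; DESeq2 called 6 of the 8, and voom called 4 without and 5 with the title number as a block. Ddit3, which encodes CHOP, stood at 19.9 to 29.1 CPM in KO and 8.12 to 13.1 CPM in WT, a log2 fold change of 1.35 (adjusted p = 0.000336). Trib3, a target of ATF4 and CHOP, showed a log2 fold change of 2.97 (adjusted p = 0.00655), and Chac1, another such target that degrades glutathione, one of 1.85 (adjusted p = 0.0148). Atf4 showed a log2 fold change of 0.57 (adjusted p = 0.0344), and it was not called in 11 of 22 alternative settings. Eif2ak3, which encodes PERK, stood at 49.6 ± 2.59 CPM in KO and 50.7 ± 2.30 CPM in WT (SD, n = 6 each; log2 fold change -0.03, adjusted p = 0.698). ATF4 and CHOP also act downstream of kinases other than PERK, and which of them was active was not tested.

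The remaining genes of the ER pathway were counted in the same way. Of 117 tested genes in lists other than the PERK arm, edgeR called 4 higher and 7 lower in KO, beside 3.99% and 3.94% of all genes, so these counts lie near the background. In edgeR, 0 of 9 tested relatives and proteases of ATF6 and subunits of NF-Y passed, with 4 at an unadjusted p under 0.05 and 1 called by DESeq2. For 4 partners of IRE1 these counts were 0, 0 and 0, and for 7 other ufmylation genes 0, 2 and 1. Among 34 other ERAD genes, Aup1, which anchors a ubiquitin-conjugating enzyme to the HRD1 complex, was higher (log2 fold change 0.14, adjusted p = 0.0123). Selenok, a selenoprotein that binds derlins, was lower (log2 fold change -0.29, adjusted p = 0.00245), with 51.9 to 59.0 CPM in KO and 64.7 to 72.7 CPM in WT, and so was Bag6, a holdase for retrotranslocated proteins (log2 fold change -0.11, adjusted p = 0.0365).

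Among 19 tested genes of oxidative folding and proline isomerization, the transmembrane thioredoxin gene Tmx3 was higher (log2 fold change 0.29, adjusted p = 0.00576) and the ER folding factor gene Erp29 was lower (-0.31, adjusted p = 0.0201). Of 20 N-glycosylation and calnexin cycle genes, Ganab, the glucosidase II subunit that trims glycans for calnexin binding, was higher (log2 fold change 0.21, adjusted p = 0.0414). Ost4, an oligosaccharyltransferase subunit, and Mcfd2, a cargo receptor partner, were lower (log2 fold changes -0.29 and -0.48, adjusted p = 0.0264 and 0.0295). Of 24 other translocation and signal peptidase genes, Dnajc1, a J protein of the ER membrane, was higher (log2 fold change 0.21, adjusted p = 0.0341), and the channel subunit gene Sec61g and the signal peptidase subunit gene Spcs1 were lower (log2 fold changes -0.77 and -0.12, adjusted p = 0.0348 and 0.0392). Sec61g lay at 0.467 to 0.631 CPM in KO and 0.546 to 1.29 CPM in WT, far below the other Sec61 subunits.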

How the data were processed

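The authors deposited 1 table of raw read counts per Ensembl gene for each clone. The tools listed in the submitters' processing notes are STAR, HTSeq and edgeR, with build mm9; versions, strandedness settings other than the unstranded counting named in the file names, and the annotation release are not given in the sources used here. The last 5 lines of each file, HTSeq totals that name no gene, entered neither library sizes nor tests; 43.6% ± 0.611 (SD, n = 12) of records were reads aligned to more than 1 place. Genotypes came from the labels, and nothing says that clones came from separate embryos. The p-values set the difference between genotypes against the spread between these clones, with each clone taken as independent.

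In R 4.3.3, edgeR 4.0.16 was run on the counts (quasi-likelihood F-test, TMM, filterByExpr on genotype), and p-values were adjusted by Benjamini-Hochberg over every gene that passed the filter; an adjusted p under 0.05 was a call. SE is the log2 fold change over the square root of F. Clone values are CPM after TMM scaling; list sums are of the same values. Precision is set by the depth: 3 counts, the limit that a count of 0 allows, were 0.109 to 0.158 CPM, for counting error only. No 2 clones had identical counts. Alternatives were DESeq2 1.42.0, voom in limma 3.58.1, other scalings and filters, title-number designs and leaving out each clone. Symbols came from a gene name table (32860 of 37583 identifiers matched), and exon lengths and overlaps from GENCODE M21, which is of another build than mm9; promoters came from RefSeq (GRCm38.p6). Of 28 member promoters, 23 have their bases after the start inside a transcript of the gene. The members, the gene lists and the promoter elements were chosen with earlier results of these data known. Named genes were the called members with Hspa5, Xbp1 and Atf6 in full, and up to 3 called genes with the smallest adjusted p of each other list.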

Additional observations from a re-analysis of the deposited data

Results flagged for a closer look

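In 4 of 62 groups of 6 clones (31 tested members in 2 genotypes), a single clone lay further from the others than Dixon's 95% critical value allows; chance gives about 1 in 20. KO clone 4K was the low value in 3 of them. Sel1l stood at 225 CPM in 4K, against 273 to 286 CPM in the other KO clones. Ern1 stood at 197 CPM in 4K, against 220.2 to 231 CPM in the other KO clones. Ufm1 stood at 46.6 CPM in 4K, against 52.1 to 54.7 CPM in the other KO clones. Atf6 was the remaining case, at 109.9 CPM in WT clone 1A, against 92.0 to 97.6 CPM in the other WT clones. Without 4K the members called were 4 higher and 4 lower, beside 387 and 321 of all genes.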

How the results depend on the processing

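Over 22 alternatives the number of members higher in KO was 2 to 5 (4 as reported) and the number lower was 3 to 7 (4 as reported). Leaving out each clone in turn gave 4 to 4 higher and 3 to 6 lower, beside 294 to 558 higher and 272 to 535 lower over all genes. Ern1, Sel1l, Hsp90b1 and Pdia6 kept their direction and their call in 22 of 22. With counts summed by title number, which leaves 2 sums a genotype, 2 members were higher and 3 lower, beside 158 and 116 of all genes. In that fit Herpud1 (adjusted p = 0.0527), Derl1 (0.149), Creld2 (0.0619) and Syvn1 (0.156) no longer passed and Sdf2l1 did (0.0346). In voom with clones of a title number treated as a correlated block (estimated correlation -0.17), 5 were higher and 7 lower, adding Dnajb9 (0.0478), Sdf2l1 (0.0127), Manf (just under 0.05) and Pdia3 (0.0129). Of all genes, that fit called 1171 higher and 1125 lower, against 497 and 428 in voom without a block. DESeq2 called 4 higher and 6 lower, adding Sdf2l1 (0.0105) and Pdia3 (0.0193). Over all genes DESeq2 called 801 higher and 830 lower, against 472 and 466 as reported. The log2 fold change of Atf6 ranged from -0.0196 (without KO replicate 1, clone 3G) to 0.0742 (without KO replicate 5, clone 4K) when clones were left out, against 0.02 as reported; it was also below 0 without KO replicate 2 (clone 3H). All genes called ranged from 158 to 1171 higher (472 as reported) and 116 to 1125 lower (466 as reported). A member's call could change with the setting even where its adjusted p as reported in edgeR was not near 0.05. Herpud1 stood at 0.00371 as reported and lost its call with counts summed by title number. Dnajb9 stood at 0.166 as reported and gained a call in voom with the block. The cause of these differences was not tested. The 3 counts of members between or across title numbers were 0 in 15 of 15 alternatives each. No paired analysis was possible because the title numbers are nested in genotype and replicates were numbered in accession order. Of the members, Derl3 was too shallow to test.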

Other observations

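Among the cell type markers listed as a check of the cultures, a gene with a role beside GRP94 stood out. Mzb1, which encodes an ER protein of B-lineage and plasma cells known to work with GRP94 and BiP, was at 1.11 to 7.43 CPM in KO clones and 11.3 to 159 CPM in WT clones. The genotypes did not overlap, and the log2 fold change was -3.88 (edgeR adjusted p = 0.0118). The adjusted p was 0.0606 with counts summed by title number and 0.115 in voom without a block, and ranged from 3.46e-06 to 0.115 over 22 alternatives. Of 11 B-lineage and plasma cell markers, 7 were tested, 3 were lower in KO (Cd79b, Igll1 and Mzb1, with log2 fold changes of -3.60, -3.55 and -3.88) and no other passed, and 5 lay below 1 CPM in every clone. DESeq2 called 3 of the list, voom without a block 0, and voom with the title number as a block 5. The summed level of the list was 182 to 403 CPM in KO clones and 142 to 549 CPM in WT clones, most of it Sdc1 in every clone but 2D. The part of B-lineage transcripts in the levels of Hsp90b1 was not tested.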
